A study of Mus musculus with 4 samples.

Results

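The cytosolic ribosomal protein genes encode the proteins of the ribosome in the cytosol, and 84 of the 24322 gene symbols listed for each library belonged to them. A symbol was counted as a member when it was *Rpl* or *Rps* with a number and at most a short suffix (a, x, l, al or l1), or when it was *Rpsa*, *Rplp0*, *Rplp1* or *Rplp2*. By role, 43 members belong to the large subunit, 30 to the small subunit and 3 to the stalk, and 8 are paralogs with names ending in l or l1. All 84 were matched to a RefSeq gene of GRCm38.p6.

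Each of the 4 libraries came from the retinal mTFP-positive cells of a single mouse, collected by FACS. All 4 mice carried *Rlbp1-CreERT2* and *R26-CAG-LoxP-mTFP1*, were given tamoxifen at P4, and their retinas were taken at P14. Mice 7984 and 3911 were the 2 controls, with a floxed and a wild-type *Rax* allele, whereas mice 7983 and 3914 were the 2 *Rax* iCKO animals, *Rax* flox/flox. The control is therefore itself heterozygous for the floxed allele and exposed to Cre and tamoxifen. CreERT2 is driven by the promoter of *Rlbp1*, a gene of Müller glia and of the pigment epithelium, so a cell enters the sort through *Rlbp1* promoter activity at the time of tamoxifen, and the labels give the strain as 129S6. The numbers 7983 and 7984 and the numbers 3911 and 3914 lie close together, each run with 1 mouse of each genotype. What a run shares is not given in the labels.

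A ribosome consists of a small subunit, which reads the mRNA, and a large subunit, which joins the amino acids. The stalk of acidic proteins on the large subunit recruits the translation factors. Most of these proteins are needed in equal number, and their mRNAs share a stretch of pyrimidines at the 5′ end, the TOP motif, through which the mTOR pathway controls how much of each mRNA is translated. Translation itself is not measured by RNA-seq, and the values here are mRNA levels only.

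*Rax* itself, the targeted homeobox gene, measured 189 FPKM (mouse 7984) and 181 FPKM (mouse 3911) in the controls, and 111 FPKM (mouse 7983) and 98.4 FPKM (mouse 3914) in *Rax* iCKO (log2 fold change −0.82, SE 0.21, limma). Every *Rax* iCKO value was below every control value, in the direction of the labels, and FPKM covers every exon of *Rax*, also any left after recombination. FPKM, fragments scaled to the length of a gene's exons and to the library's mapped reads, summed to between 492728 and 616277 in a library. From the FPKM that 1 read adds to a gene with a single transcript, the mapped reads were estimated at 12720000 in mouse 7984, 9280000 in mouse 3911, 9440000 in mouse 7983 and 9310000 in mouse 3914. The summed FPKM of 9 Müller glial markers was between 9435 and 13858, against 1109 to 1759 for 8 rod markers, 1063 to 1427 for 5 bipolar markers and at most 103 for any other list, so the labelled cell type was led by its markers in every library. The 5 pigment epithelium markers summed to at most 8.65 FPKM. Of the rod markers, 6 of 8 had each *Rax* iCKO value below each control value, as had 4 of 9 Müller glial markers, and 4 of 5 bipolar markers were higher in both. Of all 12363 genes with a mean of at least 1 FPKM, 14.1% lay below both controls in this way and 15.4% above both. The rod sums were 1702 and 1759 in the controls against 1216 and 1109 in the *Rax* iCKO libraries, and their part in the results below was not tested. In such sorted bulk samples, fewer cells of a type and less RNA per cell cannot be told apart.

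*Rpl26* had the fold change furthest from that of the other members, with both controls above both *Rax* iCKO mice. It encodes a protein of the large subunit near the exit tunnel, which is the main target of modification by the ubiquitin-like protein UFM1, and it lies on the forward strand at chr11:68901566-68904534 (GRCm38.p6). Its promoter, from 250 bases before the start to 50 bases after it (chr11:68901316-68901615, forward strand, RefSeq, GRCm38.p6), is shown because *Rpl26* had the most negative fold change of the members. The capitals mark CCGGAAG, a core letter string of ETS-family sites, and the pyrimidine tract with the TOP-like letters CTCTTTCC.

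Rpl26 promoter: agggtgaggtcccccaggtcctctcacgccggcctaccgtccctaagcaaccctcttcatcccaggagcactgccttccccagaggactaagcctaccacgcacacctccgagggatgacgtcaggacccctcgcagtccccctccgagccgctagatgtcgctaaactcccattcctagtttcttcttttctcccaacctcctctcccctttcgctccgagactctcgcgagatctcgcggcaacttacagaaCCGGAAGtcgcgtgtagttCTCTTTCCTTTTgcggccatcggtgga

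CCGGAAG lay 4 bases and CTCTTTCC 23 bases after the annotated start, and TAATT, the core that homeodomain proteins such as Rax bind, was not found in this window on either strand. Over the 63 members with a promoter in the RefSeq table, CCGGAAG on either strand was found in 24 (38.1%), against 9.12% of all 27025 promoters of this length. CTCTTTCC on the gene's own strand was found in 7 (11.1%, against 1.45%) and TAATT on either strand in 12 (19.0%, against 27.3%). A run of at least 6 pyrimidines that begins with C within 30 bases of the start, on the gene's own strand, was found in 47 (74.6%, against 41.7%). GGGCGG, the Sp1 letters, was found on either strand in 38 (60.3%, against 35.9%), AAGATGGC, letters of the YY1 site, in 5 (7.94%, against 2.88%), and TATAAA, the TATA box letters, in 6 (9.52%, against 14.2%). TOP-like and pyrimidine matches overlap each other, and a match is a description of letters, not a bound site.

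The windows of 90 bases around the first listed start of 5 further members with an entry in that table, from 40 bases before it to 49 after, follow with the pyrimidine tract in capitals. *Rps27l*, *Rpl39* and *Rps10* are among the members with the most negative fold changes, and *Rps6* and *Rpl4* had fold changes near 0. The windows lie at chr9:66946046-66946135 (*Rps27l*, forward strand), chrX:37085173-37085262 (*Rpl39*, reverse), chr17:27635195-27635284 (*Rps10*, reverse), chr4:86857318-86857407 (*Rps6*, reverse) and chr9:64173347-64173436 (*Rpl4*, forward). The first listed start of *Rps27l* is not the outer end of the gene but lies inside its span, chr9:66944624-66949522.

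Rps27l: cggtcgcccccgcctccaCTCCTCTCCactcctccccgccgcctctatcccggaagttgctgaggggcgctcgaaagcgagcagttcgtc
Rpl39: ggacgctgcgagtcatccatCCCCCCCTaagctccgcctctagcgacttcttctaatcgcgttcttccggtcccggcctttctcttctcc
Rps10: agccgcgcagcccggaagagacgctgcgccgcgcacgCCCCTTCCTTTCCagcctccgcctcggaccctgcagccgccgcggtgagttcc
Rps6: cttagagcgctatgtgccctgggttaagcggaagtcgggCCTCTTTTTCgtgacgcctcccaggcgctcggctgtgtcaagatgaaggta
Rpl4: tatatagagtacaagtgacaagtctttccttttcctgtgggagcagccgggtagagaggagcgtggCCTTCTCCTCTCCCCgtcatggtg

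The members as a group were abundant. Of the 84, 70 reached a mean of 100 FPKM, and the median of their mean FPKM was 224. *Rpl41*, which encodes the smallest ribosomal protein, was the highest by mean FPKM, with 971 and 1522 in the controls and 840.4 and 1048 in the *Rax* iCKO libraries. *Rps14*, *Rps29*, *Rps18* and *Rpl13* followed, each with a mean FPKM above 600, and the order of short genes depends on how their length was counted. At the low end, *Rpl10l* was listed at 0 in every library. *Rpl3l*, a paralog known from muscle, was at most 0.184 FPKM, and *Rpl39l*, a paralog known from testis, was at 0.356 FPKM in mouse 3914 and listed at 0 in the others. These 3 stayed under the mean of 1 FPKM required for the test, and 81 members were tested.

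The members were highest in 1 of the 2 control mice, and their levels in the genotypes overlapped. Their FPKM summed to 19260.3 (mouse 7984) and 30962 (mouse 3911) in the controls and to 17507 (mouse 7983) and 22744 (mouse 3914) in *Rax* iCKO. Their share of the summed FPKM was 3.63%, 5.02%, 3.55% and 4.15% in the same order. The 2 groups overlapped, since mouse 3914 lay above mouse 7984. All 81 tested members were highest in mouse 3911, where 28.5% of the 12363 genes tested were highest, and 70 of the 81 were lowest in mouse 7983. *Rax* iCKO mouse 3914 lay above control mouse 7984 in 62 of the 81. For 75 of 81, the mouse of the 3911 and 3914 run was the higher one in both genotypes, against 37.6% of all genes tested.

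**Figure D1:**
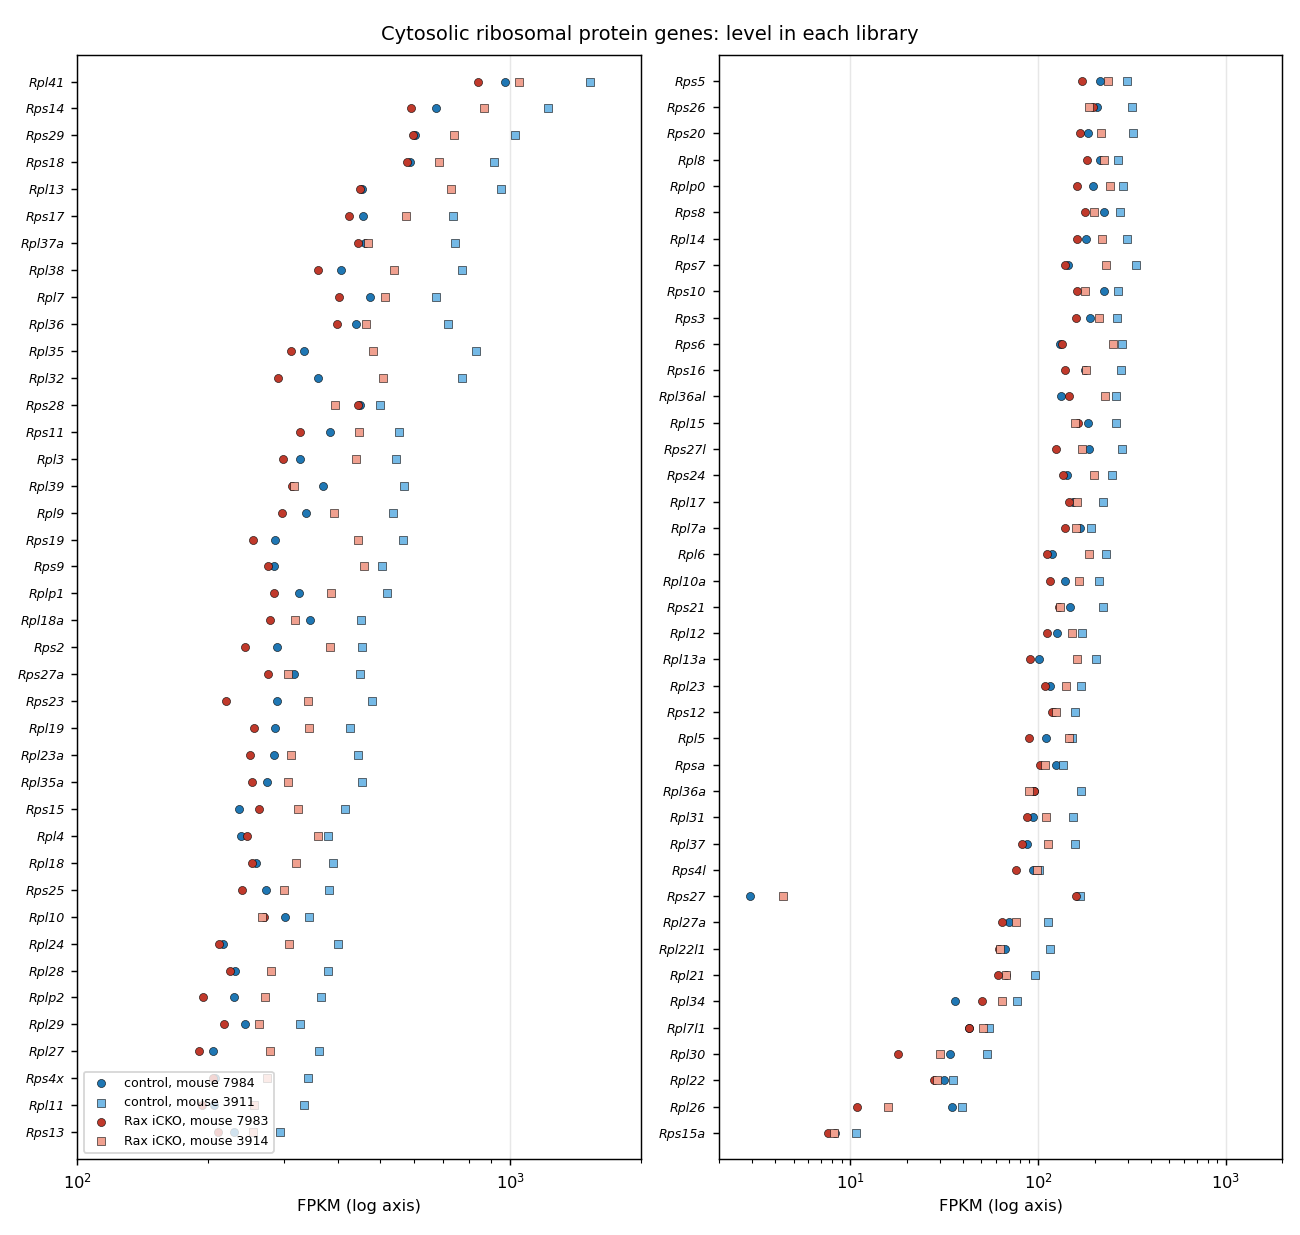
FPKM on a log axis (x) of the 81 tested members (y), ordered by mean FPKM from the top left to the bottom right, with 1 point per library (control blue, *Rax* iCKO red, circles for mice 7984 and 7983, squares for mice 3911 and 3914). The light blue square of mouse 3911 is the rightmost point in all 81 genes, and *Rps27* near the bottom has 2 values under 5 and 2 above 150.

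Between the genotypes the differences were small, and nearly all had the same direction. On log2(FPKM + 1), the fold change of *Rax* iCKO over control was negative for 79 of 81 members, and its median was −0.27, against −0.00 over all genes tested. No member passed an adjusted p of 0.05 in limma, against 3 of 12363 genes or 0.0243%. At an unadjusted p under 0.05, *Rpl26* and *Rpl30* were lower, 2 of 81 against 1.6% of all genes, and 0 were higher, against 1.26%. The *Rax* iCKO values were both below the lower control in 18 of 81 members (22.2%), against 14.1% of all genes, and both above the higher control in 0, against 15.4%. With 2 mice in each group, the exact two-sided permutation test over the 4 libraries cannot give a p under 0.333. Other abundant genes had the same direction more often than not. Among the 994 non-members that reached a mean of 100 FPKM, the median log2 fold change was −0.17, 773 were lower, and 224 (22.5%) had no overlap in the same direction, so this share was no larger for the members. Scaling each library to a sum of 1000000 moved the median of all genes to 0.12 and that of the members to −0.13, and quantile normalization gave −0.11 for the members, with 69 of 81 lower.

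Within each run of mouse numbers, 74 of 81 members (91.4%) were lower in the *Rax* iCKO mouse than in the control of the same run, against 31.7% of all genes and 60.1% of the other abundant genes. The median log2 difference of the members was −0.16 for mouse 7983 against 7984 and −0.38 for mouse 3914 against 3911. The difference between the controls, mouse 3911 over mouse 7984, was larger, with a median of 0.65, and that between the *Rax* iCKO mice, 3914 over 7983, was 0.37. The group value rested on mouse 3911. Without that control, the median log2 fold change of the members was 0.01 and 36 of 81 were lower. Without control mouse 7984 it was −0.60, without *Rax* iCKO mouse 7983 it was −0.09, and without *Rax* iCKO mouse 3914 it was −0.48.

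**Figure D2:**
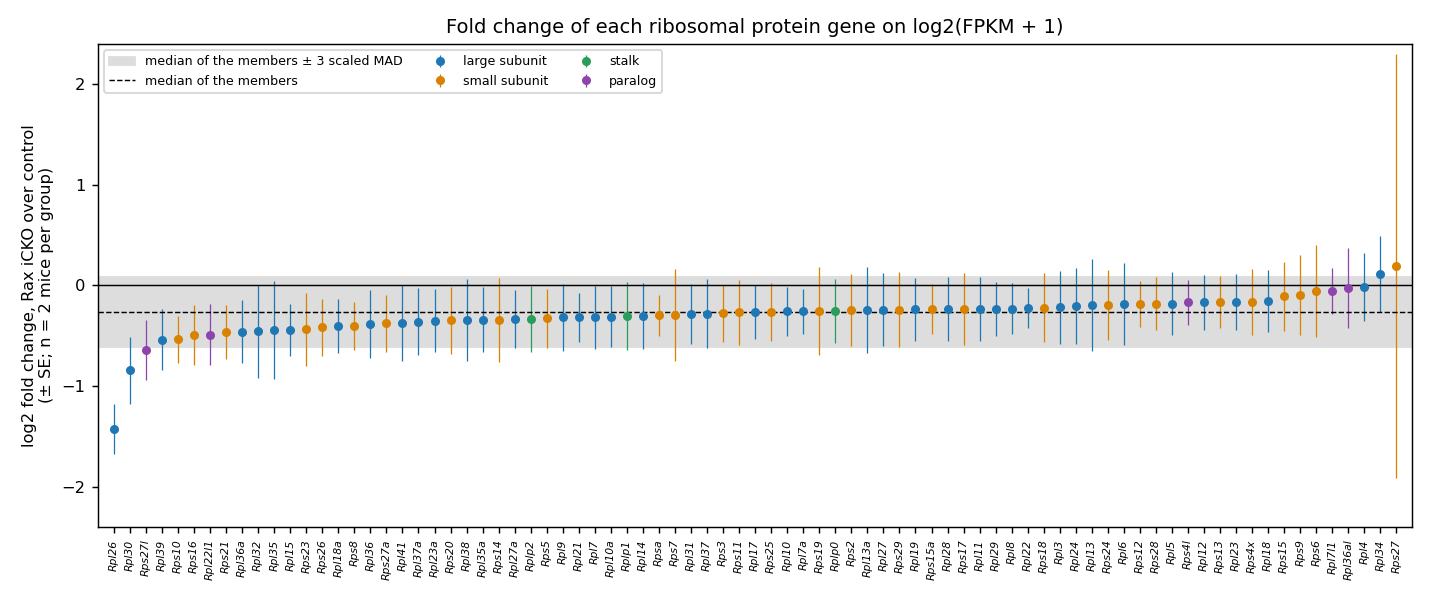
Log2 fold change of *Rax* iCKO over control (y) with its SE from limma for the 81 tested members (x), coloured by role, in order of fold change. The grey band, from −0.62 to 0.08, is the members' median of −0.27 ± 3 scaled MAD, and *Rpl26*, *Rpl30* and *Rps27l* lie below it and *Rpl34* and *Rps27* above it.

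The subunits gave like values. The median log2 fold change was −0.28 over 43 large-subunit members, −0.26 over 30 small-subunit members, −0.31 over the 3 stalk members and −0.17 over the 5 tested paralogs. The stalk proteins *Rplp0*, *Rplp1* and *Rplp2* had log2 fold changes of −0.25, −0.31 and −0.33. *Rplp0*, the base of the stalk, measured 196 and 282 FPKM in the controls and 161 and 241 in the *Rax* iCKO libraries. Its groups overlapped, as did those of *Rplp1* and *Rplp2*. *Rpl5* and *Rpl11*, which bind 5S rRNA and, when free, Mdm2, had −0.18 and −0.23. *Rps27a*, made as a fusion with ubiquitin, had −0.37 (−0.12 without control mouse 3911 and −0.63 without control mouse 7984), and *Rpsa*, also known as the laminin receptor, had −0.30, and in both genes the *Rax* iCKO libraries lay below the controls. The same held for *Rpl10*, which joins the large subunit late in its assembly (−0.26), whereas *Rps4x*, an X-linked small-subunit gene, had −0.17 with overlapping groups. The fold changes of *Rpl5*, *Rpl11*, *Rps4x* and all 3 stalk genes were above 0 without control mouse 3911, and those of *Rpl5*, *Rps4x* and *Rplp0* also without *Rax* iCKO mouse 7983.

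Apart from the ends of the order, the members were tightly packed. The quartiles of the log2 fold change were −0.35 and −0.20, and 76 of 81 members lay within 3 scaled median absolute deviations (each 0.12) of the members' median. The 5 outside were *Rpl26*, *Rpl30* and *Rps27l* on the lower side and *Rpl34* and *Rps27* on the upper side.

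*Rpl26* measured 34.7 FPKM (mouse 7984) and 39.2 FPKM (mouse 3911) in the controls, against 10.8 FPKM (mouse 7983) and 15.8 FPKM (mouse 3914) in *Rax* iCKO. The groups did not overlap, and the lowest control was above the highest *Rax* iCKO library by more than the spread within either group. The control mean was 37.0 ± 3.16 FPKM (SD, n = 2) and the *Rax* iCKO mean 13.3 ± 3.53 FPKM (SD, n = 2), and the second divided by the first was 0.360. The log2 fold change was −1.43 (SE 0.25), with an unadjusted p of 0.00125 and an adjusted p of 0.9999 in limma, and between −1.68 and −1.17 when any 1 library was left out. Within the runs it was −1.60 (7983 against 7984) and −1.26 (3914 against 3911), whereas the 2 controls differed by 0.17. Taken as a percentage of the members' median FPKM in the same library, *Rpl26* was 16.3% and 12.3% in the controls and 5.68% and 6.33% in *Rax* iCKO. With 200 bases taken off its transcript of 526 bases, the FPKM correspond to about 144, 119, 33 and 48 reads in the order above, an estimate and not a count. Of its 426 windows as long as a read, 153 (35.9%) occur also in transcripts of 4 other genes, so part of its reads could be placed elsewhere. These genes, led by *Gm15772*, *Gm10136* and *Gm11826*, were not summed with *Rpl26*, and how the reads were divided was not tested. The 3 nearest tested genes on each side of *Rpl26* in the RefSeq table, *Pik3r5*, *Myh10*, *Ndel1*, *Slc25a35*, *Rangrf* and *Pfas*, had log2 fold changes between −0.15 and 0.21.

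*Rpl30*, a large-subunit protein, was the next lowest in fold change. It measured 33.8 and 53.3 FPKM in the controls against 18.003 and 29.9 in *Rax* iCKO. The groups did not overlap, but control mouse 7984 and *Rax* iCKO mouse 3914 lay close together. Its log2 fold change was −0.84 (SE 0.34, unadjusted p = 0.0451, adjusted p = 0.9999 in limma), between −1.19 and −0.49 when 1 library was left out. It shares 53.2% of its windows with other transcripts, among them named pseudogenes of its own, and *Rpl30* was not summed with them. *Rps27l*, a paralog of *Rps27* known as a p53 target, measured 186 and 279.6 FPKM against 125 and 171, with a log2 fold change of −0.64 (SE 0.30, adjusted p = 0.9999) and no shared window. Its fold change was −0.35 without control mouse 3911 and −0.42 without *Rax* iCKO mouse 7983, and −0.93 without control mouse 7984. *Rpl26* and *Rpl30* were low members, ranked 80 and 78 of 84 by mean FPKM.

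*Rpl39*, a short protein of the exit tunnel, measured 370 and 567 FPKM in the controls against 314 and 316 in the iCKO libraries, with a log2 fold change of −0.54 that was −0.23 without control mouse 3911 and −0.85 without control mouse 7984. *Rps10*, in the head of the small subunit, measured 225 and 268 against 161 and 178 (−0.53). Neither group pair overlapped, and neither gene lay outside the common trend. At the other end, *Rpl4*, which lines the exit tunnel, measured 239 and 379 against 246 and 359 (−0.02). *Rps6*, the substrate of the S6 kinases, measured 131 and 279 FPKM against 134 and 249.98 (−0.06). In both genes the difference between the runs was far larger than that between the genotypes.

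**Figure D3:**
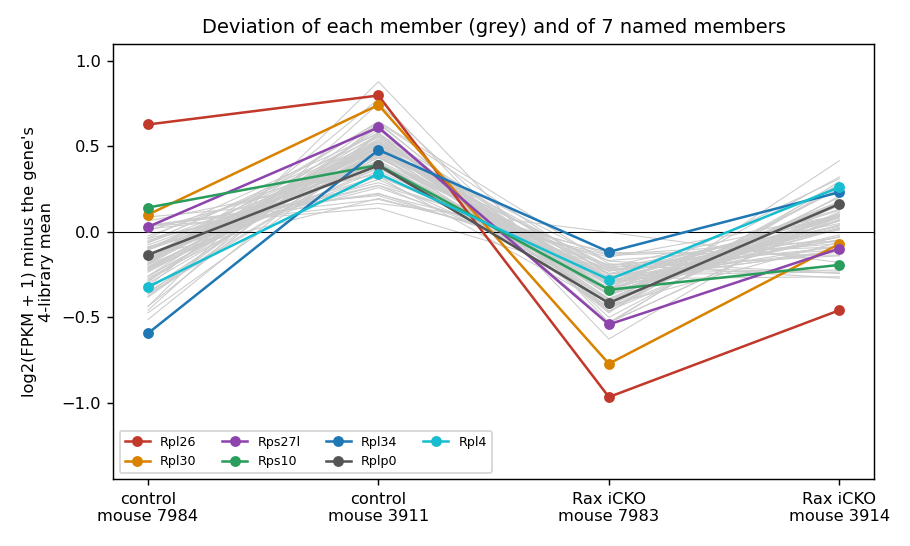
Log2(FPKM + 1) minus the gene's mean over the 4 libraries (y) in each library (x) for 80 tested members (grey, without *Rps27*) and 7 named ones (coloured); lines only join the values of a gene. Most members peak in control mouse 3911 and are lowest in *Rax* iCKO mouse 7983, and *Rpl26* is high in both controls and low in both *Rax* iCKO libraries.

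**Figure D4:**
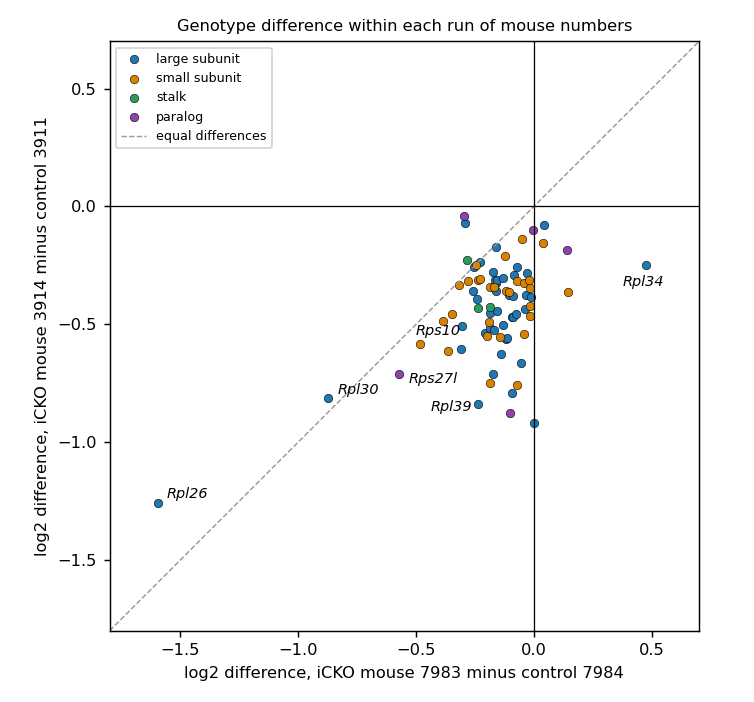
Log2 difference between *Rax* iCKO mouse 3914 and control mouse 3911 (y) against that between *Rax* iCKO mouse 7983 and control mouse 7984 (x) for 80 tested members, coloured by role; *Rps27*, at 5.35 on x and −4.97 on y, lies outside the axes. Most points lie below 0 on both axes and below the line of equal differences, with *Rpl26* at −1.60 and −1.26.

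Across the 80 members without *Rps27*, the genotype differences of the 2 runs had a Pearson r of 0.49 and a Spearman rho of 0.20, and the differences between the runs in the 2 genotypes had an r of 0.59 and a rho of 0.56. Members are not independent replicates and share libraries, so these are descriptions.

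*Rps27*, a zinc-finger protein of the small subunit, had the most uneven values of any member. The controls gave 2.95 FPKM (mouse 7984) and 168 FPKM (mouse 3911), and *Rax* iCKO gave 159.9 FPKM (mouse 7983) and 4.37 FPKM (mouse 3914). The high libraries belong to different genotypes and to different runs. Its copy *Rps27rt*, listed under a symbol of its own, was 782, 1157, 504 and 766 FPKM in the same order. The 2 coding sequences, 252 bases each without the stop codon, differ at 0 positions, which is why the shared sequence is shown.

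Rps27 and Rps27rt: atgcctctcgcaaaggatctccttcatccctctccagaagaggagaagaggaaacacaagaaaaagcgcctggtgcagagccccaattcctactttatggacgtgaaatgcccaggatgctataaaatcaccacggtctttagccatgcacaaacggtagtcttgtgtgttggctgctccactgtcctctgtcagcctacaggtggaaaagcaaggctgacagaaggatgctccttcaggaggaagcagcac

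Of these windows of *Rps27*, 98.4% occur in another transcript, as do 89.4% of those of *Rps27rt*. The sum of both symbols was 785, 1325, 664 and 770.1 FPKM, of which *Rps27* held 0.375%, 12.7%, 24.1% and 0.568%. The log2 fold change was 0.19 (SE 2.11) for *Rps27* alone and −0.51 (SE 0.37) for the sum, and how the reads were divided between the symbols was not tested.

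**Figure D5:**
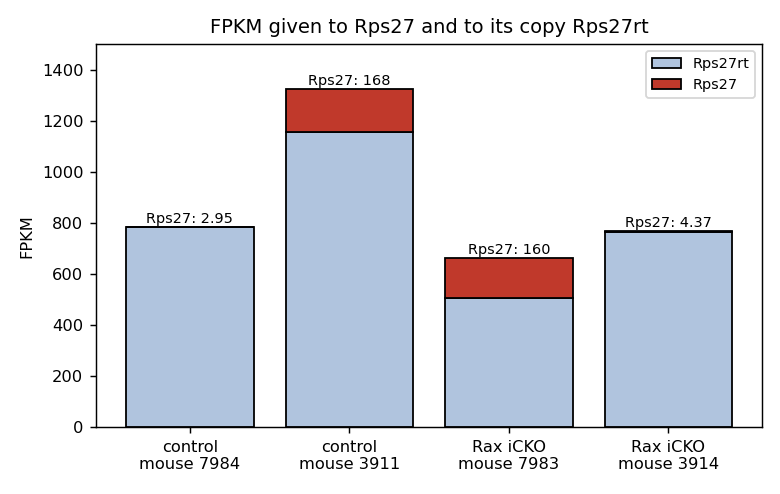
FPKM (y, from 0) given to *Rps27rt* (blue) and *Rps27* (red, with its value above) in each of the 4 libraries (x). The red part is large only in control mouse 3911 and *Rax* iCKO mouse 7983, and the sum is highest in control mouse 3911.

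*Rpl34*, the other member above the trend, shares 29.4% of its windows with other transcripts. It measured 36.0 and 76.98 FPKM in the controls and 50.5 and 64.7 in *Rax* iCKO, whereas the entry *Rpl34-ps1*, named as its pseudogene, was 417, 502, 343 and 388. *Rpl34* held between 7.95% and 14.3% of the sum of both entries, an evener share than that of *Rps27*. The log2 fold change was 0.11 alone and −0.28 for the sum. Alone it lay between −0.42 and 0.65 when any 1 library was left out, so its direction was not settled. *Rps15a*, the lowest tested member by mean FPKM, measured 8.30, 10.8, 7.57 and 8.17, and its log2 fold change went from −0.24 to −0.31 when *Rps15a-ps4* and *Rps15a-ps6* were added. Shared sequence was common: 75 of 84 members shared at least 1 window with another gene, the median share was 40.9% of a member's windows, and 36 members shared more than 50% of them. Across 80 members, the share of windows had a rho of 0.09 with the log2 fold change and 0.06 with the level.

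The tested paralogs were 5. *Rpl22l1*, the paralog of *Rpl22*, measured 66.4 and 116 FPKM against 61.9 and 62.8 (log2 fold change −0.49, but −0.09 without control mouse 3911 and −0.89 without control mouse 7984). *Rpl22* itself measured 31.7 and 35.4 against 28.0 and 29.0 (−0.23). *Rpl36al* (−0.02), *Rpl7l1* (−0.05) and *Rps4l* (−0.17) had fold changes nearer to 0, and their groups overlapped. Structural genes that the rule does not match had values like those of the members. *Fau*, a fusion of the small subunit, measured 221 and 336 FPKM against 181 and 239.9 (−0.39), *Rps3a1* had −0.35 and *Gnb2l1*, also called Rack1, had −0.22. In these 3 genes the groups overlapped. Without control mouse 3911 *Fau* had −0.09, *Rps3a1* 0.13 and *Gnb2l1* 0.04, and *Gnb2l1* had 0.08 without *Rax* iCKO mouse 7983.

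Of the lists of genes that work with the ribosome, all 8 had medians between 0.02 and 0.22 without control mouse 3911, also those with a median below 0 in the 4 libraries. None of the 9 lists held a gene at an unadjusted p under 0.05 in limma. Elongation factors and other TOP mRNAs were lower in 16 of 18 genes, with a median log2 fold change of −0.19 (8 of 18 and 0.05 without control mouse 3911), from *Hnrnpa1*, an RNA-binding protein (−0.67), to *Pabpc1*, the poly(A)-binding protein (0.22). Of 77 mitochondrial ribosomal protein genes, 64 were lower, with a median of −0.12, from *Mrps23* (−0.49) to *Mrps18b* (0.30). That median became 0.01 when each library was scaled to a sum of 1000000, and 0.15, with 24 of 77 lower, without control mouse 3911. Initiation factors had a median of −0.06 over 27 genes, with *Eif3i* at −0.37 and *Eif4g3* at 0.50. Ribosome biogenesis factors had 25 of 35 genes higher and a median of 0.11, from *Nop10*, a box H/ACA protein (−0.39), to *Polr1b*, a subunit of RNA polymerase I (0.36), and the median was −0.08 without control mouse 7984 and −0.06 without *Rax* iCKO mouse 3914. Genes of the mTOR pathway and of TOP mRNA control had 14 of 22 higher and a median of 0.11, from *Ddit4*, an inhibitor of mTOR (−0.52), to *Rps6kb2*, an S6 kinase (0.45). The 8 genes that attach or remove UFM1, the modifier of Rpl26 protein, had a median of −0.08, 4 lower and 4 higher, from *Ufc1*, the UFM1-conjugating enzyme (−0.35), to *Ufsp1*, a UFM1 protease (0.17). Chaperones and targeting factors at the ribosome had −0.06 over 18 genes, from *Sec61b*, a subunit of the translocon (−0.46), to *Hspa14* (0.25). Quality-control factors had 0.06 over 11 genes, from *Hbs1l*, a ribosome rescue factor (−0.26), to *Ankzf1* (0.35), and the median was −0.02 without control mouse 7984. The medians of the initiation factors (0.01), the UFM1 genes (0.01) and the chaperones (0.02) were above 0 after quantile normalization, and so were those after scaling to a sum of 1000000 (0.07, 0.05 and 0.07). The difference between the members and any of these lists was not tested.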

How the data were processed

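RNA-seq of FACS-sorted mTFP-positive cells from 4 mice was analysed from the deposited FPKM files. Per the labels the reads were mapped to mm10, as single-end reads by the methods, and the authors computed FPKM per gene with Cufflinks or Cuffdiff. The submitters' processing notes give TopHat2 2.1.1, Bowtie2 2.2.8, SAMtools 0.1.18 and Cuffdiff 2.2.1, whereas the paper's methods give other versions of all but the last, which is named there as Cufflinks. The RNA was isolated with a spin-column kit by the labels but with TRIzol LS by the methods, so the RNA isolation is not settled. Whether counting used strand, and how multi-mapping reads were placed, is not given in the sources used here. This bears on members with copies and on *Rpl18*, *Rpl19*, *Rpl23a*, *Rpl24*, *Rpl31*, *Rpl32*, *Rpl35*, *Rpl35a*, *Rps25*, *Rps27a* and *Rps4l*, which overlap other protein-coding genes. FPKM are relative to each library's mapped reads.

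Groups, taken from the genotype labels, were compared on log2(FPKM + 1) with limma 3.58.1 in R 4.3.3 (lmFit, eBayes with a trend) over the 12363 genes that reached a mean of 1 FPKM, and p-values were adjusted over all of them (Benjamini-Hochberg). Fold changes on this scale understate those of low genes. No count model was run on FPKM. Single values were also compared with exact two-sided permutation tests (scipy 1.17.1 in Python, with numpy 2.4.6 and pandas 2.3.3). The fit was tested on simulated data. The replicates are separate mice. Sequences came from RefSeq (GRCm38.p6), and shared windows and lengths from the GENCODE transcripts of GRCm38.

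The members and gene lists were chosen with earlier results of these data known. Named are *Rpl26*, the 5 members at each end of fold change and of mean FPKM, members over 3 scaled MAD from the median, members with a set role, paralogs, structural genes outside the rule and the ends of each list. The other genes that reached a mean of 100 FPKM, the neighbours of *Rpl26*, *Rpl22* and the copies were picked after their values were seen. The alternatives tried were quantile normalization, scaling to equal medians or to a sum of 1000000, pseudocount 0.1, all genes kept, a minimum mean of 5 FPKM, no variance trend, a block by run of mouse numbers, leaving out each mouse and, chosen after seeing the data, summing copies. For the share of FPKM they were protein-coding symbols only, and leaving out the 5 most abundant members or the 50 most abundant other symbols. Mapped reads were estimated from genes with 1 transcript of at least 600 bases, with 200 bases taken off its length. Amino acid sequences, and members without a promoter entry, were not analysed here, and 1 structural gene outside the rule is not reported here.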

Additional observations from a re-analysis of the deposited data

How the results depend on the processing

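No member passed an adjusted p of 0.05 in limma under 12 of the 13 alternatives. The exception was the replicate block by run of mouse numbers, which called 2 members, *Rpl26* (log2 fold change −1.43, adjusted p = 0.00138) and *Rpl30* (adjusted p = 0.0261), among 71 genes in all. Of these 71, 47 were lower, which is 0.380% of the 12363 genes tested. The labels do not say that mice with neighbouring numbers share a litter or a batch, so the samples share only a run of numbers. Over all genes tested, the deviations of same-run libraries from their group means correlated with r = 0.50, which is across genes and only a hint. At an unadjusted p under 0.05, 30 of 81 members were lower with the block (37.0%, against 8.87% of all genes in that fit), 10 of 81 without control mouse 7984 (12.3%, against 1.99%), and 1 to 3 under the others. Leaving out 1 mouse left 0 members called and moved the median log2 fold change of the members between −0.60 and 0.01, that of *Rpl26* between −1.68 and −1.17, and the ratio of the members' share of FPKM (0.889, *Rax* iCKO over control) between 0.766 and 1.06, above 1 without control mouse 3911. The members' median stayed below 0 under the 3 other scalings, at −0.11 (quantile), −0.13 (sum of 1000000, 73 of 81 lower) and −0.29 (equal medians). *Rpl26* kept its sign in 13 of 13 alternatives, and 12 of 32 named genes did so. With the copies of *Rps27*, *Rpl34* and *Rps15a* summed the median was −0.28. The 2 mice per group and FPKM without counts limit the precision, and about 33 to 48 reads stand behind *Rpl26* in *Rax* iCKO.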

Other observations

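Small nucleolar RNAs, which guide the modification of rRNA, lie in introns of many ribosomal protein genes. By the annotation, 33 snoRNA entries lay inside 23 members, and 21 of them were listed at 0 in all 4 libraries. *Snora70*, inside *Rpl10*, was 12.1 and 16.7 FPKM in the controls against 32.6 and 33.3 in the *Rax* iCKO libraries. Its log2 fold change was 1.16 (adjusted p = 0.9999 in limma), and that of *Rpl10* was −0.26. Both *Rax* iCKO values of *Snora70* were above both controls, as for 15.4% of all genes tested. *Snora7a*, inside *Rpl32* and also 129 bases long, had the same 16.7 FPKM in mouse 3911 and 16.3 in mouse 7983. The *Snora70* values therefore stand for very few reads, and its fold change rests on them. *Snora78*, inside *Rps2*, was 12.1 and 8.34 FPKM in the controls, listed at 0 in mouse 7983 and 8.31 in mouse 3914. Of 13 nested entries tested, 7 were lower and 6 higher. A single read on so short an entry is worth many FPKM, and reads of the host's introns are not told apart from those of the snoRNA.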
